A study of Mus musculus with 4 samples.

Results

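The genes described here are the nuclear genes for subunits of the mitochondrial respiratory chain and of ATP synthase in mouse T-cell progenitors. They were chosen by name alone: gene rows whose symbol starts with Nduf followed by a, b, c, s or v and a number, with Uqcr, with Cox4 to Cox8, or with Atp5. The gene Cox4i2 and symbols with -ps were left out by the rule, as were rows with fewer than 10 unique molecular identifiers (UMIs, counts of single RNA molecules) over both RNA matrices. Of 31053 gene rows, 79 matched the names and 74 also passed the minimum: 36 in complex I, 8 in complex III, 14 in complex IV and 16 in complex V, the ATP synthase. The 5 rows below the minimum were Cox7b2, Cox8b and Cox8c with 0 UMIs, Ndufa4l2 with 8, and a second row carrying the symbol Atp5o with 2. The members with the fewest UMIs above it were Cox7a1 with 1360, Atp5s with 3109 and Cox6b2 with 3296. Ndufa4 is counted here with complex I by its name, although it is now assigned to complex IV. Cox4i2, a complex IV gene by its name, was a leading gene of cell cluster 5 of experiment 1 and cell cluster 11 of experiment 2. The results for the members do not cover it.

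Oxidative phosphorylation moves electrons from NADH and succinate through complexes I to IV to oxygen, pumps protons across the inner mitochondrial membrane, and lets them back through complex V to make ATP. A few catalytic subunits are encoded in mitochondrial DNA, and most subunits, including all of those described here, are encoded in the nucleus and imported. In many tissues the nuclear genes are known to share promoter motifs for the factors NRF1, GABP and YY1, and several complex IV subunits have paralogs restricted to muscle or testis.

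Promoters of 9 members are shown first. They were chosen after their values were seen, as genes with wide ranges between samples, cell clusters or experiments, or as restricted paralogs and their common partners. Cox6a2 has no entry in the table used. Each line gives the 150 bases before the annotated start, 5′ to 3′ on the strand of the gene, from RefSeq on build GRCm38.p6. The starts used for Cox5a, Atp5g1 and Ndufa3 lie inside the annotated span of the gene, so these stretches overlap it. Capitals mark matches on either strand to the NRF1 motif (the longer runs) or to the GABP/ETS letters CCGGAAG (the shorter runs).
Ndufa11, chr17:56717612-56717761, forward strand: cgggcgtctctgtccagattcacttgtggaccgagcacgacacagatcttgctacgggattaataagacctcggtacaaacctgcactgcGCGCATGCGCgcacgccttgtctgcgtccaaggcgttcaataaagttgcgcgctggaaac
Cox5a, chr9:57521082-57521231, forward strand: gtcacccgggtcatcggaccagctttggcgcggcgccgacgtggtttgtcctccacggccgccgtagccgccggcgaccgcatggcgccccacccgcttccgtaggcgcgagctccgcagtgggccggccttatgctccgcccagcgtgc
Cox6a1, chr5:115348959-115349108, reverse strand: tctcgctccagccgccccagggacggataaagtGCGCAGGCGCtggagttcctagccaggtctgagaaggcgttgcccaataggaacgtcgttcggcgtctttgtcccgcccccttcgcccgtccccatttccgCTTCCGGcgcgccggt
Cox6b1, chr7:30626115-30626264, reverse strand: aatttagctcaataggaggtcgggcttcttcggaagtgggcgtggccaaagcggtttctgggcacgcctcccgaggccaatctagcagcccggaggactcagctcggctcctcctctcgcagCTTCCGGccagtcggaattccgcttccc
Cox6b2, chr7:4753095-4753244, reverse strand: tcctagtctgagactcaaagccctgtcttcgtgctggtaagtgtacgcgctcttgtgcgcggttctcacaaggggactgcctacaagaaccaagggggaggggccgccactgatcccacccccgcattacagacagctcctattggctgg
Atp5g1, chr11:96075632-96075781, reverse strand: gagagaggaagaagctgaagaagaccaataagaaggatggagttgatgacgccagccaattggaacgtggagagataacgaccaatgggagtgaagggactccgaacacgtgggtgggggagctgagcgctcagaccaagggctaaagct
Atp5k, chr5:108434400-108434549, reverse strand: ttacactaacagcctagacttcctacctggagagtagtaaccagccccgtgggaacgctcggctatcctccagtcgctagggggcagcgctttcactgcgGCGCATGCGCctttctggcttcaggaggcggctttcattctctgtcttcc
Atp5f1, chr3:105959264-105959413, reverse strand: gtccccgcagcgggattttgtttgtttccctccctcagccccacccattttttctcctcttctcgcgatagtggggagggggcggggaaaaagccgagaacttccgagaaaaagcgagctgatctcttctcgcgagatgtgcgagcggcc
Ndufa3, chr7:3617223-3617372, forward strand: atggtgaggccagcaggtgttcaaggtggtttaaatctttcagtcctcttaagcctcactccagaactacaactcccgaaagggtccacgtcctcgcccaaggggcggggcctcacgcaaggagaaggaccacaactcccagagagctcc

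Over the full promoter entries, which run from 250 bases before to 50 after the start, 63 of the 74 members had an entry, with 68 entries in all. NRF1 letters were in 16 of 68 member entries (23.5%) against 4.6% of all 32851 entries of that length. GABP/ETS letters were in 14 member entries (20.6%) against 8.86% of all. The YY1 motif, searched on both strands like the others, was in 4 member entries (5.88%) against 0.986%. A motif of any of the 3 kinds was in 30 member entries (44.1%) against 13.3% of all. The median GC content was 57.3% for member entries and 52.7% for all entries. Counted per gene, 14 of 32 complex I genes held a motif, 3 of 5 in complex III, 3 of 11 in complex IV and 9 of 15 in complex V. All 4 genes with YY1 letters (Ndufa9, Ndufs4, Ndufs6 and Ndufs7) belong to complex I. Of the promoters printed, Cox6a1 holds an NRF1 and a GABP/ETS match, Ndufa11 and Atp5k an NRF1 match, and Cox6b1 a GABP/ETS match. The stretches of Cox5a, Atp5g1, Cox6b2, Atp5f1 and Ndufa3 hold neither set of letters. A match is a description of letters in this window and says nothing of binding.

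The study grew bone-marrow progenitors into early T-cell precursors on OP9-Dll1, a stromal line that presents a Notch ligand, with IL-7 and Flt3-ligand at 10 ng/ml each. It compared Runx1 overexpression (retroviral MSCV-Runx1-mCherry against MSCV-empty-mCherry) in Bcl2 transgenic B6 mice aged 8 to 10 weeks, harvested on days 4 and 6, and double knockout of Runx1 and Runx3 in B6.Cas9;Bcl2 transgenic mice, harvested on days 5 and 8. In the knockout arm the vectors E42-gRunx1-hNGFR and E42-gRunx3-mTurquoise carried 3 guide pairs for each gene, and the controls carried guides to luciferase in the same backbones. Vectors were added on day 2, and Lineage-negative, CD45-positive cells with the vector markers were sorted, stained per culture with hashtag antibodies that carry a DNA barcode, and pooled in equal numbers. All groups thus carry the Bcl2 transgene, which favours survival, and all come from co-culture rather than from thymus. The sex of the mice and the driver of the transgenes are not given in the sources used here.

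Per the labels, experiment 1 spans 4 to 5 days of culture and experiment 2 spans 4 to 8 days, each with 1 RNA library and 8 hashtags. The hashtag columns name no condition, so hashtags 1 to 8, numbered in column order, are samples of unknown condition. They are not replicates of a group, no condition is compared with another, and no test or p-value is given. Hashtag 1 of experiment 1 and hashtag 1 of experiment 2 need not share a condition. A cell was given a hashtag when its top tag had at least 50 counts and at least 3 times the second. Experiment 1 held 8797 such cells of 9332 that passed the cell filter, with 14502385 to 38067298 UMIs per hashtag. Experiment 2 held 8335 of 10214, with 22272716 to 42684236. The libraries shared 39 cell barcodes, of which 28 were among the tagged cells.

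The labels call the cells T progenitors with high Kit. All 8 markers fixed for early progenitors, Kit among them, and all 11 fixed for the T lineage were detected in both experiments. Early progenitor markers summed to 0.0407 to 0.0652% of UMIs per hashtag in experiment 1 and 0.0193 to 0.0763% in experiment 2. T-lineage markers summed to 0.0452 to 0.118% in experiment 1 and 0.0269 to 0.198% in experiment 2. Markers of early progenitors, of the T lineage and of other cells all moved between hashtags far more than the respiratory genes did. Granulocyte markers (10 of 10 detected) ran from 0.0229% in hashtag 7 to 0.153% in hashtag 2 of experiment 1, and from 0.0200% in hashtag 7 to 1.24% in hashtag 6 of experiment 2. Markers of OP9-like stroma (9 of 9 detected) ran from 0.0402 to 0.0862% and from 0.0621 to 0.132%, although the sort gate required CD45, which stromal cells lack.

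The 74 genes together took a nearly constant share of the RNA in every hashtag. In experiment 1 they made up 2.72, 2.72, 2.68, 2.67, 2.62, 2.64, 2.56 and 2.58% of UMIs in hashtags 1 to 8 (median 2.65%, SD 0.0601 percentage points over 8 hashtags). In experiment 2 they made up 3.07, 2.95, 3.02, 2.99, 2.97, 2.97, 2.97 and 2.98% (median 2.98%, SD 0.0393). The highest hashtag exceeded the lowest by 1.06-fold in experiment 1 (95% interval 1.061 to 1.068, counting error only) and by 1.04-fold in experiment 2. In experiment 1 hashtags 1 and 2 were highest and 7 and 8 lowest, and in experiment 2 hashtag 1 stood above the other 7, which lay close together. Depth differed as well. The median cell held 29311 and 29606 UMIs in hashtags 1 and 2 of experiment 1 and 18058 and 20809 in hashtags 7 and 8. In experiment 2 it held most in hashtag 1 (31961) and fewest in hashtag 4 (19543), whose share was 2.99%. The part of depth in the order of hashtags was not tested. A lower sum per hashtag can come from fewer cells rich in these RNAs or from less RNA in each cell, and sums alone cannot tell these apart.

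Each complex kept its own level with the same narrow spread. Complex I genes summed to 0.785 to 0.836% of UMIs in experiment 1 (median 0.818%) and to 0.913 to 0.947% in experiment 2 (median 0.920%). Complex III, the smallest set, summed to 0.279 to 0.300% (median 0.284%) and to 0.311 to 0.338% (median 0.323%). No hashtag of experiment 1 reached the lowest of experiment 2 for these sets, nor for those of the next 2 complexes. Complex IV summed to 0.631 to 0.678% (median 0.659%) and to 0.753 to 0.782% (median 0.761%). ATP synthase genes took the largest share, 0.863 to 0.915% (median 0.891%) and 0.959 to 1.01% (median 0.975%). Hashtag 7 was the lowest of experiment 1 for all 4 complexes. Hashtag 1 of experiment 2 was the highest for complexes III, IV and V, while hashtag 4 was the highest for complex I.

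**Figure D1:**
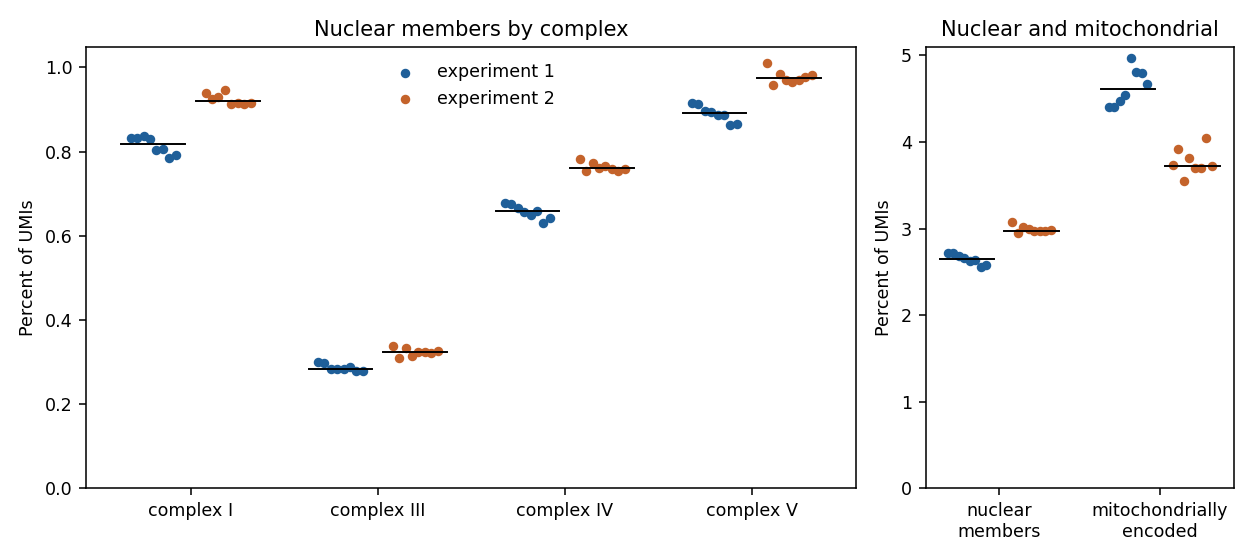
Percent of UMIs (vertical axes) taken by the nuclear members of each complex (left) and by all nuclear members and the mitochondrially encoded subunits (right). Each point is 1 hashtag, in order 1 to 8 from left to right within a group, and bars are medians; nuclear shares lie higher in experiment 2 (median 2.98 against 2.65%) and mitochondrially encoded shares lower (3.73 against 4.61%).

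Mitochondrially encoded subunits of the same complexes varied somewhat more between hashtags. They took 4.40 to 4.97% of UMIs in experiment 1 (median 4.61%), lowest in hashtag 1 where the nuclear genes were highest. In experiment 2 they took 3.55 to 4.04% (median 3.73%), highest in hashtag 7. The mitochondrial ribosome, also encoded in the nucleus, ranged 1.17-fold between hashtags in experiment 1 and 1.16-fold in experiment 2, lowest in hashtag 7 of both.

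Taken gene by gene, no member passing the filter on low values differed 1.5-fold or more between the highest and lowest hashtag. This was 0 of 70 in experiment 1, where 14.8% of all features tested did, and 0 of 69 in experiment 2, where 21.6% did. To pass, a gene needed a mean of 50 CPM (counts scaled to a total of 1000000 UMIs) or more, and its lowest hashtag needed 10 UMIs or more. The median ratio of members was 1.12 and 1.14, against 1.22 and 1.26 for all features. The closest to the limit were Cox5a and Ndufa11 in experiment 1, both at 1.36, and Ndufa11 in experiment 2, at 1.43. Where every cell was thinned to 3000 UMIs, Ndufa11 passed the limit in both experiments, at 1.57 and 1.56. Where cells were weighted equally, it passed in experiment 2 at 1.53.

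Of the few members that failed the filter, all but Ndufs1 had wider ranges. Cox6a2, Cox6b2, Cox7a1 and Atp5s lay below 50 CPM in both experiments, and Ndufs1 fell just short in experiment 2 with a mean of 49.9 CPM. Without a CPM minimum, the first 4 of these all exceeded 1.5-fold in each experiment. How many of all features did so without that minimum was not counted. Counting error is large at such levels: Cox7a1 had 26 and 17 UMIs in hashtags 7 and 8 of experiment 1. The ratios in experiment 1 were 3.44 for Cox6a2, 1.75 for Cox6b2, 2.26 for Cox7a1 and 1.68 for Atp5s. In experiment 2 they were 7.51, 7.90, 2.30 and 1.92. These genes are scarce, and no count over those that passed stands for all 74.

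**Figure D2:**
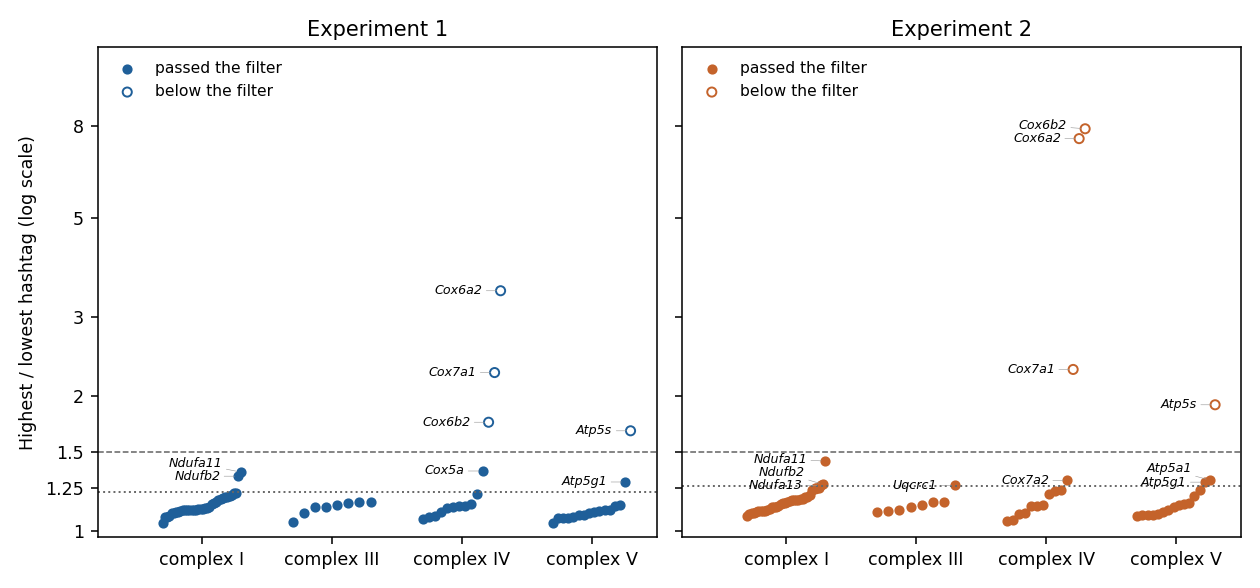
Ratio of the highest to the lowest hashtag (vertical axis, log scale) for each member, by complex, in experiment 1 (left) and 2 (right). Filled points passed the filter and open points did not, the dashed line is the 1.5-fold limit and the dotted line the median of all features (1.22 and 1.26); all filled points lie under the limit and the open points of Cox6a2, Cox6b2, Cox7a1 and Atp5s lie above it.

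The members did not all peak in the same hashtag. How many of all features were highest or lowest in each hashtag was not counted. In experiment 1, of 70 members, 26 were lowest in hashtag 7 and 14 in hashtag 8, while 19 were highest in hashtag 1, 18 in hashtag 2 and 16 in hashtag 3. In experiment 2, of 69, 29 were highest in hashtag 1. Hashtag 4 of experiment 2 held the highest value of 18 members and the lowest of 15, so its total stayed in the middle while single genes sat at either end. The highest hashtag exceeded the lowest by 25% or more for 4 of 70 members in experiment 1, where it did for 43% of all features tested, and for 7 of 69 in experiment 2, where it did for 53.1%.

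Complex I takes electrons from NADH and passes them to ubiquinone. Of the 36 genes counted with it by name, Ndufa4 (now assigned to complex IV), Ndufb8 and Ndufb9 had the highest mean CPM in experiment 1 (835, 410 and 365). Ndufa9, Ndufs8 and Ndufs1 had the lowest (104, 94.5 and 62.5). UMIs count molecules by their 3′ end and are not scaled by gene length, so the order is one of captured molecules. The same genes held the extremes in experiment 2, where Ndufa4 reached 898 CPM and Ndufs1 49.9. Ndufs1, the largest iron-sulfur subunit of the matrix arm, and Ndufv1, which binds the flavin that accepts electrons from NADH, both had ratios of 1.22 in experiment 1. Ndufs1 read 64.8, 67.4, 65.95, 63.0, 61.9, 64.7, 55.4 and 57.1 CPM in hashtags 1 to 8, and Ndufv1 121, 118, 119.9, 116, 109, 113, 100.3 and 99.3. Both were lowest in hashtags 7 and 8. In experiment 2 Ndufs1 read 56.9, 51.3, 51.1, 48.5, 48.4, 45.7, 48.8 and 48.9 CPM, highest in hashtag 1 and lowest in hashtag 6.

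Ndufa11, a subunit of the membrane arm at chr17:56717762-56724248, had the widest range of complex I. Its CPM in hashtags 1 to 8 of experiment 1 was 200.2, 197, 258, 258, 198, 203, 191 and 196. Hashtags 3 and 4 stood clear of the other 6, which were at 203 or less. The highest-to-lowest ratio was 1.36 (interval 1.306 to 1.408). In experiment 2 the values were 228, 268, 229, 317, 226, 221, 242 and 235. Here hashtag 4 was highest and hashtag 2 next, for a ratio of 1.43 (1.388 to 1.484). Without hashtag 4 the ratio was 1.22. Leaving out the clusters led by genes of other lineages, described below, gave 1.39 and 1.48.

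Ndufb2, an accessory subunit of the membrane arm, was highest and lowest in the same hashtags in experiment 1. Its CPM was 195, 198, 228, 228, 192, 193, 172 and 178, highest in hashtags 3 and 4 and lowest in 7 and 8 (ratio 1.33). Experiment 2 gave 239, 275, 235, 242, 224, 216, 246 and 216 (ratio 1.27), highest in hashtag 2 and not in hashtag 4. Ndufa13, also in the membrane arm, ran from 327 CPM in hashtag 1 to 413 in hashtag 4 of experiment 2 (ratio 1.27). At the other end, Ndufc1 varied least in experiment 1, with a ratio of 1.04.

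Complex III passes electrons from ubiquinol to cytochrome c. Uqcrh, the acidic hinge protein, Uqcrq and Uqcrb had the highest means in experiment 1 (614, 483 and 418 CPM). The Rieske iron-sulfur protein Uqcrfs1 (205) and the core proteins Uqcrc2 (198) and Uqcrc1 (165) had the lowest. Uqcrc1 read 182, 180.2, 159, 159.8, 159, 165, 160.35 and 159 CPM in hashtags 1 to 8 of experiment 1, so that hashtags 1 and 2 were above the other 6 (ratio 1.15). Its values in experiment 2 were 199, 164, 189.6, 157, 181, 173, 178 and 185, lowest in hashtags 4 and 2 (ratio 1.27). Uqcrfs1 was among the steadiest members of experiment 1, with a ratio of 1.05.

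Complex IV, cytochrome c oxidase, reduces oxygen. Among the genes counted with it by name, Cox8a, Cox4i1 and Cox5a were the most abundant RNAs. Their means were 1073, 886 and 769.95 CPM in experiment 1 and 1263, 959 and 906 in experiment 2. Ndufa4, counted with complex I, is not in this ranking. Cox8a had a ratio of only 1.06 in experiment 2. Cox5a, at chr9:57517328-57532427, was the complex IV gene above 50 CPM with the widest range in experiment 1: 797, 797, 871, 855, 755, 773, 639 and 672 CPM. Hashtags 3 and 4 were highest, and 7 and 8 stood below the rest (ratio 1.36, interval 1.336 to 1.392). Experiment 2 gave 926, 1008, 919, 962, 917, 829.8, 856 and 832, highest in hashtags 2 and 4, with a smaller ratio of 1.21.

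Cox7a2, the broadly expressed form of subunit 7a, had the widest range among complex IV genes above 50 CPM in experiment 2. Its CPM was 537, 455, 567, 515, 540.3, 563, 548 and 591 (ratio 1.30), lowest in hashtag 2 and next lowest in hashtag 4. In experiment 1 it read 479, 477, 433, 436, 468, 468, 473 and 478 (ratio 1.11), lowest in hashtags 3 and 4. In experiment 1 the hashtags that were lowest for Cox7a2 were therefore the highest for Ndufa11, Ndufb2 and Cox5a, and in experiment 2 hashtags 2 and 4 were the lowest for Cox7a2 and the highest for Ndufa11 and Cox5a.

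Complex V makes ATP. Its catalytic subunit Atp5b had the highest mean (1010 CPM in experiment 1 and 977 in experiment 2), followed in experiment 1 by the stalk subunit Atp5f1 (787) and Atp5g2 (748). Atp5k (208) and Atp5s (5.77), a factor linked to the synthase, had the lowest. Atp5a1, the alpha subunit that alternates with Atp5b in the catalytic head, read 714, 613, 655, 549, 652, 638, 619.8 and 638 CPM in experiment 2. It was lowest in hashtag 4 and next lowest in hashtag 2 (ratio 1.30). In experiment 1 its ratio was 1.15, lowest in hashtag 7 (622) and highest in hashtag 2 (713). Atp5j2 varied least in experiment 1, at 1.05.

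Atp5g1, Atp5g2 and Atp5g3 encode the same mature subunit of the membrane rotor ring with different import sequences. Atp5g1 read 825, 832, 712, 717, 739, 763, 646 and 688 CPM in hashtags 1 to 8 of experiment 1, highest in 1 and 2 and lowest in 7 (ratio 1.29). Its values in experiment 2 were 889.8, 742, 860.2, 691, 798, 796, 707 and 764, highest in 1 and 3 and lowest in 4 (ratio 1.29). Atp5g1 made up a median of 38.5% of the UMIs of the 3 genes in experiment 1 (range 36.2 to 42.0%) and 40.6% in experiment 2 (36.9 to 43.3%). Atp5g2 made up 39.6 and 39.1%, and Atp5g3 21.5 and 19.5%. Atp5g1 and Atp5g2 thus contributed at similar levels, and Atp5g3 less.

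**Figure D3:**
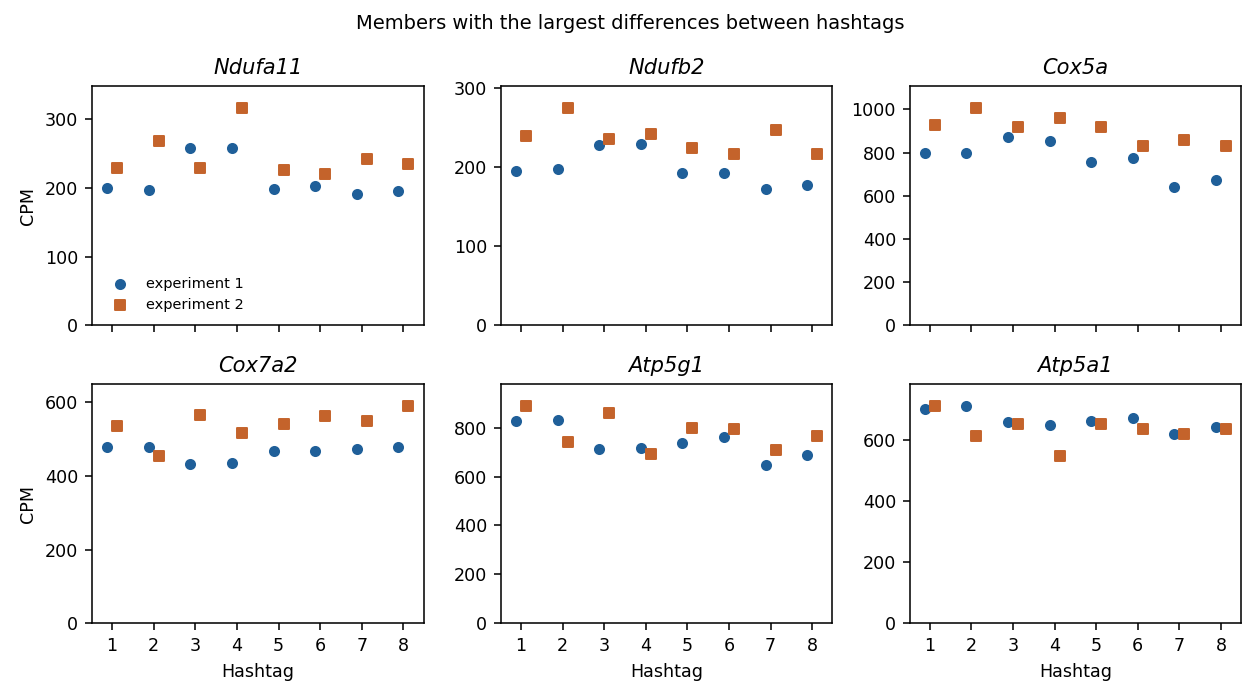
CPM (vertical axes, from 0) of 6 members in hashtags 1 to 8 of experiment 1 (circles) and experiment 2 (squares); a hashtag number does not mark the same condition in both. Ndufa11 stood at 258 CPM in hashtags 3 and 4 of experiment 1 and at 317 in hashtag 4 of experiment 2, where Atp5a1 was at its lowest, 549.

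The widest ranges belonged to subunits known for restricted expression. Cox6a2, at chr7:128205435-128206366, is the form of subunit 6a typical of heart and skeletal muscle, and Cox6a1 is its broadly expressed partner. Cox6a2 read 20.8, 21.7, 9.16, 7.34, 14.8, 19.4, 6.31 and 11.4 CPM in hashtags 1 to 8 of experiment 1 (ratio 3.44, interval 2.87 to 4.15). In experiment 2 it read 27.3, 8.61, 25.5, 6.62, 38.3, 30.1, 5.10 and 9.34 (ratio 7.51, 6.22 to 9.15). Hashtags 1, 3, 5 and 6 of experiment 2 were all above 25 CPM, and the other 4 were all under 10. Without each hashtag in turn the ratio in experiment 2 was 5.79 to 7.51. Cox6a1 stayed between 255 and 272 CPM in experiment 1 and between 275 and 315 in experiment 2.

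Cox6a2 therefore made up a median of 4.70% of Cox6a UMIs in experiment 1 (range 2.31 to 7.83%, SD 2.19 over 8 hashtags) and 5.40% in experiment 2 (1.64 to 11.4%, SD 3.89). Between 6.18 and 29.0% of cells per hashtag had a Cox6a2 UMI in experiment 1, and between 6.98 and 33.1% in experiment 2. The 5 cells with most held 6.42 to 23.5% of a hashtag's Cox6a2 UMIs in experiment 1 and 7.16 to 27.9% in experiment 2. In hashtags 2, 4, 7 and 8 of experiment 2, the lowest for Cox6a2, they held 27.5, 19.7, 27.5 and 27.9%. Innate lymphoid or NK-like cluster 6 of experiment 1 had no Cox6a2 UMI in 184 cells at a median of 15472 UMIs per cell, against a median of 31416 in granulocyte-like cluster 8. Cluster 6 held 0 of 1029 Cox6a UMIs as Cox6a2, which allows a share of up to 0.292% by the limit of 3 counts over the total (exact 95% upper bound 0.358%). The part of free RNA in the Cox6a2 counts was not tested. In hashtag 2 of experiment 1, among the highest for Cox6a2, granulocyte markers were also highest. In experiment 2 granulocyte markers were 0.295, 0.235, 0.140, 0.180, 0.803, 1.24, 0.0200 and 0.512% in hashtags 1 to 8. Clusters with at least 3 leading markers of stromal, myeloid, dendritic, mast or B-lineage cells were then left out: 8, 10 and 12 of experiment 1 (825 cells) and 8, 9, 12, 14, 15 and 17 of experiment 2 (1548 cells), cluster 8 of experiment 2 among them although it stayed unnamed. NK-like clusters were kept. Without these clusters the highest-to-lowest ratio of Cox6a2 was 3.16 and 11.2.

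Cox6b2, at chr7:4751792-4753094, is the form of subunit 6b known from testis. It read 6.28, 6.03, 7.75, 8.45, 5.28, 4.89, 5.36 and 4.83 CPM in experiment 1 (ratio 1.75), highest in hashtags 3 and 4. In experiment 2 it read 7.96, 10.5, 5.74, 11.7, 5.18, 3.97, 2.17 and 1.48 (ratio 7.90, interval 5.51 to 11.7), highest in hashtags 4 and 2 and lowest in 8 and 7. Without each hashtag in turn the ratio in experiment 2 was 5.40 to 7.90. Mast or basophil markers were also highest in hashtag 4 of experiment 2, at 0.0838% of UMIs. With the clusters led by other lineages left out, mast or basophil-like cells among them, the ratio was 8.67.

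Cox7a1, the muscle form of subunit 7a, was at the edge of detection, with 1.17 to 2.65 CPM per hashtag in experiment 1 and 1.98 to 4.55 in experiment 2. It made up a median of 0.262 and 0.340% of the summed UMIs of Cox7a1, Cox7a2 and Cox7a2l. Of the other restricted paralogs whose names the rule takes in, Cox7b2, Cox8b and Cox8c had no UMI in either matrix and Ndufa4l2 had 8.

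Cells were next grouped by clustering without the members and without mitochondrially encoded genes, giving 12 clusters in experiment 1 and 18 in experiment 2. Clusters are called by a cell type with the ending -like where at least 3 markers of that type were among their leading genes, and otherwise by number. Cox6a2 was highest in granulocyte-like cluster 8 of experiment 1, at 48.2 CPM (interval 45.4 to 51.1), where it made up 16.0% of Cox6a UMIs. It was above the rest of the hashtag in all 8 hashtags there. Cluster 1, led by histone genes, followed at 20.1 CPM and cluster 7, led by Ung, at 16.1. T-lineage-like clusters 4 and 11 held 4.69 and 1.21 CPM.

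In experiment 2 the highest levels of Cox6a2 were in cluster 8, led by the myeloid genes Clec4n, Ms4a4c and C1qb (48.4 CPM, above the rest in 8 of 8 hashtags), and in early progenitor-like cluster 11 (46.8 CPM, 5 of 5). Cluster 13, led by Serpina3f, held 39.4 CPM (4 of 4), and early progenitor-like cluster 7 held 33.1 (4 of 4). Granulocyte-like cluster 14 held only 9.63 CPM. The 3 T-lineage-like clusters held 1.66 to 3.52 CPM, and innate lymphoid or NK-like cluster 18 had 4 UMIs of Cox6a2 among 1285 of Cox6a. Pooled over hashtags, every T-lineage-like cluster of both experiments thus held at most 4.69 CPM of Cox6a2. Within single hashtags these clusters reached up to 6.92 CPM in experiment 1 (cluster 11) and 9.41 in experiment 2 (cluster 3). The clusters were not compared by a test.

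Cox6b2 had another pattern. It was highest in mast or basophil-like cells, at 27.9 CPM (interval 21.9 to 35.0) in cluster 10 of experiment 1 and 38.5 CPM (31.6 to 46.4) in cluster 15 of experiment 2. There it made up 5.50 and 6.90% of Cox6b UMIs, and it was above the rest in the 1 hashtag of experiment 1 and both of experiment 2 with at least 20 such cells. Next in experiment 2 came T-lineage-like cluster 2, led by Themis and Pgam2, with 20.8 CPM, and cluster 5, led by Pgam2, with 11.3. Innate lymphoid or NK-like cluster 18 held 0 of 1711 Cox6b UMIs, which allows a share of up to 0.175%.

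**Figure D4:**
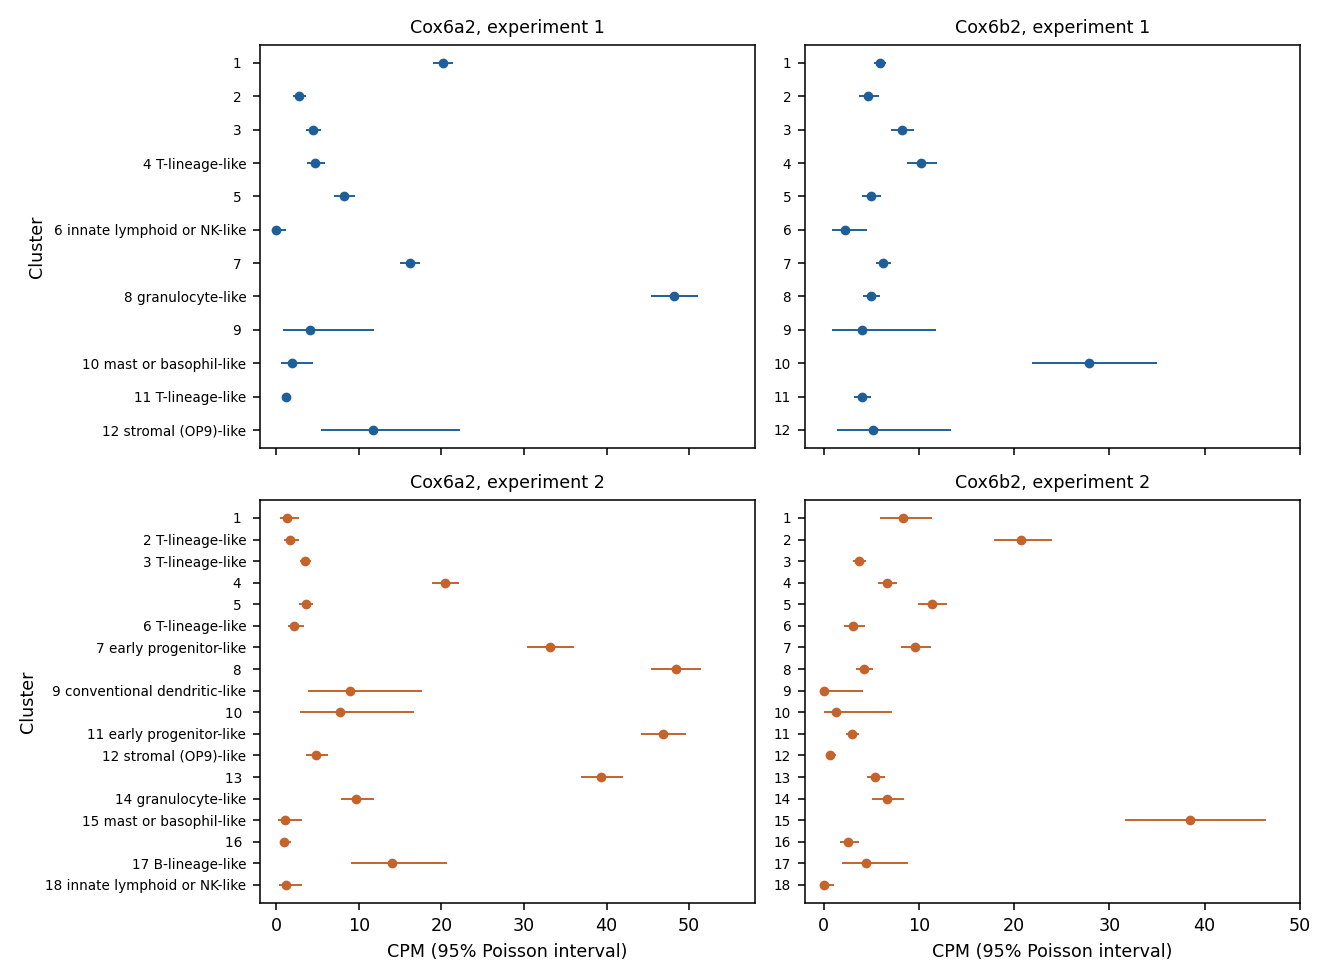
CPM of Cox6a2 (left) and Cox6b2 (right) in each cluster of experiment 1 (top) and 2 (bottom), with exact 95% Poisson intervals for counting error. Cox6a2 peaks in cluster 8 of each experiment (48.2 and 48.4 CPM) and Cox6b2 in the mast or basophil-like clusters (27.9 and 38.5).

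Ndufa11 was highest in clusters that share Pgam2 as a leading gene. In experiment 1 clusters 3 and 4 read 282 to 303 CPM in the 2 hashtags that held enough of their cells, above 236 to 249 in the rest of those hashtags. In experiment 2 T-lineage-like cluster 2 read 455 to 459.6 CPM per hashtag, against 256 to 263 in the rest. Cluster 5, led by Pgam2 as well, read 282 to 298, above the rest in 1 of 2 hashtags. Cox5a was also highest in cluster 5, with 1095 to 1103 CPM against 905 to 929 in the rest of both hashtags.

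Cox6a1 and Cox7a2, the broadly expressed partners, were higher in innate lymphoid or NK-like cells. Cox7a2 read 519.7 to 583 CPM there in experiment 1 (above the rest in 3 of 3 hashtags) and 632 to 699 in experiment 2 (5 of 5). Cox6a1 read 319 to 337 (3 of 3) and 359 to 428 (5 of 5). It was also above the rest in every hashtag compared in clusters 3, 4 and 10 of experiment 1 (2, 2 and 1 hashtags) and in clusters 1, 15 and 16 of experiment 2 (2 each). Other clusters also held Cox7a2 above the rest in every hashtag compared: T-lineage-like cluster 11 (8 of 8) and mast or basophil-like cluster 10 (1 of 1) of experiment 1, and in experiment 2 granulocyte-like cluster 14 (7 of 7), mast or basophil-like cluster 15 and unnamed clusters 1 and 16 (2 of 2 each). Atp5g1 went the other way in NK-like cells: it was below the rest in 5 of 5 hashtags of experiment 2, at 564 to 659 CPM, and was highest in granulocyte-like cluster 8 of experiment 1 (929.5 CPM).

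The share of all 74 genes was also taken per cluster, for progenitor-like and other cells alike. In experiment 1, over 10 clusters with at least 100 cells and usual depth, it ran from 2.52% in cluster 5 to 2.77% in granulocyte-like cluster 8, a ratio of 1.10. Cluster 9 stood apart at 1.74%, with a median of 2944 UMIs per cell. In experiment 2 the ratio over 15 clusters was 1.32, from 2.44% in stromal-like cluster 12 to 3.21% in cluster 1, which is led by Gzmc and Cd8b1. Cluster 10, led by Ccl22, Ccr7 and Cd83, was lower still at 2.32% but is outside these ranges with 64 cells. Its median was 9986 UMIs per cell. Stromal-like cells (207) were below the rest in 6 of 6 hashtags, and their mitochondrially encoded share was 5.05%. Without that cluster, an alternative chosen after seeing its value, the ratio was 1.11. At Leiden resolution 1.0 the lowest was another cluster, with leading granulocyte markers (2.36%), and the ratio was 1.36 with or without the stromal-like cluster.

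Single members were counted over the same clusters. In experiment 1, 0 of 70 members differed 2-fold or more between clusters, where 21.1% of all features did. In experiment 2, 7 of 69 did, against 55.9% of all features: Atp5f1 (366 to 1075 CPM), Ndufa11 (185 to 456), Cox5a (464 to 1100), Uqcrfs1, Uqcrc1, Uqcrc2 and Atp5b (535 to 1094). All 7 were lowest in the stromal-like cluster. Without it only Ndufa11 was left, at 2.16-fold, where 33.6% of all features were called. At resolution 1.0 without the stromal-like cluster 3 members were left, Ndufa11, Ndufa12 and Ndufs3. The share of all features was not counted at that resolution. Of the 69 members, 45 had their lowest value in stromal-like cluster 12 and 20 their highest in cluster 1. How many of all features had their lowest or highest value there was not counted.

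At the level of single cells, detection followed abundance. With each cell thinned to 3000 UMIs, 8676 cells of experiment 1 and 8235 of experiment 2 remained, and 121 and 100 shallower cells were left out. The median cell then held UMIs of 42 members in experiment 1 (5th to 95th percentile 34 to 49) and of 45 in experiment 2 (36 to 51). Without thinning the median was 70 in both. Cox8a was found in 96.0% of thinned cells of experiment 1, Atp5b in 94.0%, Ndufs1 in 16.9% and Cox6a2 in 3.45%. Unthinned, these shares were 99.9, 99.8, 73.8 and 17.4%. Of the thinned cells, 0 lacked a UMI of every member.

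Cells of a hashtag differed in the joint share of these genes only moderately beyond sampling. The variance of the thinned share over its binomial value was 1.59 to 2.84 in experiment 1 (median 1.77) and 1.87 to 3.02 in experiment 2 (median 2.43). Cytosolic ribosomal protein genes had medians of 11.1 and 20.3 by the same measure, mitochondrially encoded genes 6.17 and 6.79, and mitochondrial ribosomal protein genes 1.49 and 1.71. The ratio grows with the number of UMIs of a set, so it is not a scale on which sets of unequal size can be ranked.

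Shallower cells had a lower share. When the cells of each hashtag were split into 4 equal bins by total UMIs, the members took 2.50, 2.65, 2.69 and 2.71% from the shallowest to the deepest bin of experiment 1, and 2.80, 2.99, 3.05 and 3.02% in experiment 2. The shallowest bin was the lowest in 8 of 8 hashtags of each experiment. Its mitochondrially encoded share was 5.08% in experiment 1 and 4.07% in experiment 2, higher than in the deepest bin (4.33 and 3.66%). By the summed share of 20 proliferation genes the bins took 2.60, 2.70, 2.69 and 2.64% in experiment 1 and 2.81, 3.06, 3.04 and 3.00% in experiment 2. The bin with the lowest proliferation share was lowest in both. In experiment 2 each of the other bins was above it in 8 of 8 hashtags, and in experiment 1 the next bins were above it in 8, 6 and 5 of 8. Its cells were also shallower, with a median of 17810 UMIs against 30823 in the highest bin of experiment 1 and 17088 against 33011 in experiment 2. The part of depth in this was not tested.

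Between the experiments the members were higher in experiment 2. Their share was 2.66% over all tagged cells of experiment 1 and 2.99% of experiment 2, a ratio of 1.12 (interval 1.1235 to 1.1259, counting error only). Of 70 members with at least 50 CPM, 63 had a ratio above 1, as did 1126 of all 2772 features tested. The median of all features was 0.959. Complex IV had a ratio of 1.16 with 11 of 11 genes above 1. Complexes I and III had 1.13, and complex V 1.09. Each experiment is 1 library with its own culture days and mix of cultures, and library, time and mix cannot be told apart.

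At a limit of 25% higher (or its inverse, a ratio of 0.8), 8 members were higher in experiment 2, where 4.91% of all 2772 features were, and 1 was lower, where 20.5% were. Atp5k, a small subunit of the synthase's membrane part, went from 210.1 to 340 CPM (1.62). Ndufa3, a membrane-arm subunit of complex I, went from 107 to 172 (1.60), with 103 to 114 CPM over the hashtags of experiment 1 and 163 to 185 over those of experiment 2. Uqcr11 of complex III went from 393 to 520.4 (1.32) and Ndufc1 of complex I from 228 to 298 (1.31). For these 4 genes every hashtag of experiment 2 was above every hashtag of experiment 1. That held for 34 of the 70 members, and for 5.7% of all features. Ndufs8 (1.27), Atp5e, Ndufa6 and Ndufa2 (each 1.26) were just past the limit. Ndufs8 did not pass after thinning, and Ndufa2 did not with mitochondrially encoded genes out of the total or without the clusters of other lineages.

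The lower member was Ndufs1, at 63.4 and 50.3 CPM (0.793). Its lowest hashtag of experiment 1 (55.4) was under the highest of experiment 2 (56.9), so the groups overlapped at 1 value. Without hashtag 2 of experiment 1, or hashtag 6 of experiment 2, Ndufs1 no longer passed the limit. The next lowest were Atp5g3 (0.935), Ndufb3 (0.947), Atp5a1 (0.951) and Atp5b (0.966). With TMM scaling, which moves all features together, the ratio of the member share was 1.18, 20 members were higher, where 7.76% of all features were, and 0 lower, where 13.9% were. By DESeq2 size factors the counts were also 20 (7.72% of all features) and 0 (14.1%). With TMM scaling Atp5b (1.018) and Atp5a1 (1.002) lay above 1, and 67 of 70 members did, where the median of all features was 1.010. Granulocyte markers were 6.71 times and stromal markers 1.78 times as high in experiment 2. With the clusters led by other lineages left out, the ratio of the member share was 1.14.

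**Figure D5:**
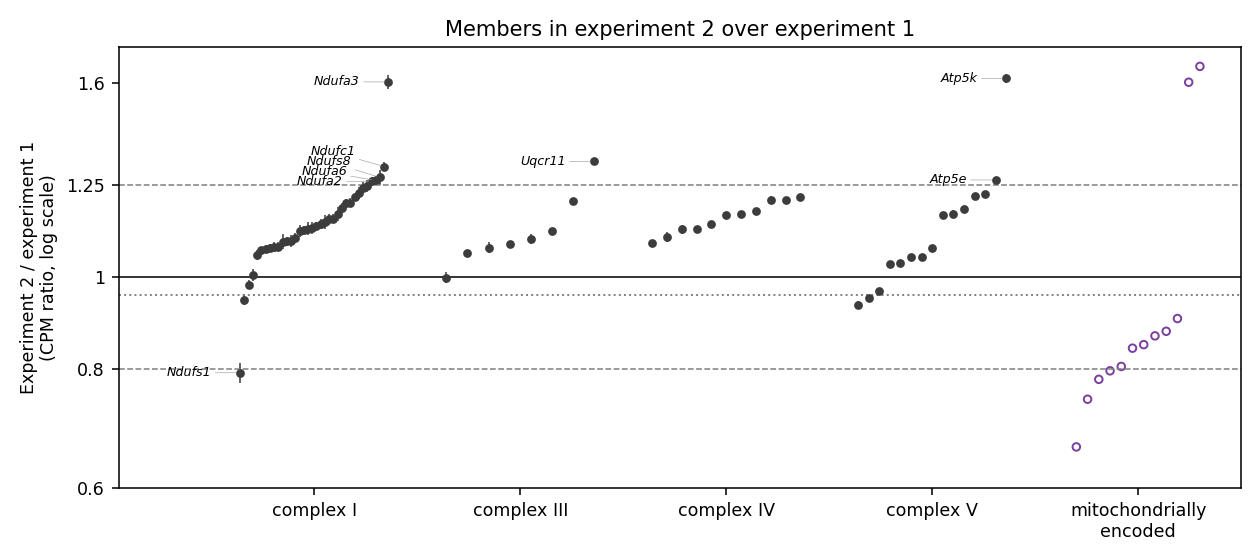
Ratio of CPM in experiment 2 to experiment 1 (vertical axis, log scale) for the 70 members with at least 50 CPM (filled, with 95% counting intervals) and 12 mitochondrially encoded genes (open). Dashed lines mark 25% higher and the ratio 0.8 and the dotted line the median of all features, 0.959; most members lie above 1 and most mitochondrially encoded genes below.

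Other genes of the pathway, taken from fixed lists, had ratios from 0.817 to 1.11. Mitochondrially encoded subunits had a joint ratio of 0.817, with 2 of 12 genes higher (mt-Nd4l at 1.60 and mt-Atp8 at 1.66) and 4 lower by the same limits. Complex II, the succinate dehydrogenase that also belongs to the citric acid cycle, had a ratio of 0.962 over 4 genes, with Sdhb at 1.18 and Sdhd at 0.755. Citric acid cycle genes had 0.957. Both of these lists turned above 1 with TMM scaling, at 1.01 each. Cytosolic ribosomal protein genes had 1.11, close to the members. Mitochondrial ribosomal protein genes had 1.05, with 3 of 66 higher and 1 lower. Of 11 assembly factors above 50 CPM, 1 was higher, Pet100 of complex IV assembly, at 1.52.

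Between hashtags the lists differed in range. The median ratio of assembly factors was 1.21 and 1.27 in experiments 1 and 2 and that of mitochondrial ribosomal protein genes 1.22 and 1.22, close to the 1.22 and 1.26 of all features. Other lists were about as steady as the members (1.12 and 1.14). Cytosolic ribosomal protein genes had 1.11 and 1.13, complex II genes 1.13 and 1.13, and mitochondrially encoded subunits 1.14 and 1.16. At 1.5-fold, 0 of 84 cytosolic ribosomal protein genes, 0 of 11 assembly factors and 0 of 4 complex II genes passed in either experiment. Mitochondrial ribosomal protein genes passed in 2 of 66 and 1 of 66 cases, and citric acid cycle genes in 0 of 12 and 1 of 11, the latter Fh1, the fumarate hydratase (1.68). Cycs, the mobile carrier cytochrome c, ranged 1.33-fold and 1.39-fold, and Cyc1, cytochrome c1 of complex III, 1.22-fold and 1.21-fold. Atpif1, an inhibitor of ATP synthase, ranged 1.31-fold and 1.30-fold. Of the regulators of these genes, Nrf1 lay between 33.1 and 38.2 CPM over the hashtags of experiment 1 and Gabpa between 20.3 and 22.5. Ppargc1a, a coactivator of mitochondrial genes, was near 0, with at most 0.351 CPM in experiment 1 and 0.486 in experiment 2. Of 5 regulators that passed the filter in experiment 1, Myc and Hif1a exceeded the limit, at 1.55-fold and 1.69-fold, and in experiment 2 it was 0 of 3. Both were below 50 CPM there, where Hif1a ranged 2.18-fold and Myc 1.48-fold.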

How the data were processed

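The deposited matrices hold raw UMI counts per gene and cell, made by the authors with Cell Ranger 3.0.0 on build GRCm38 (mm10), per the submitters' processing notes, from 10x Chromium v3 3′ libraries, per the labels' protocols. Counts of 8 hashtags per cell were deposited as separate raw tables. The aligner and annotation are not given in the sources used here. Gene names came from the files, and gene positions and promoters from RefSeq on GRCm38.p6, with 2 members matched through a synonym.

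Barcodes needed 500 genes or more and less than 10% mitochondrial UMIs (9332 and 10214 kept), and cells without a clear top tag, doublets among them, were left out (535 and 1879). No other doublet caller was run. UMIs of the tagged cells were summed per hashtag and divided by their total. Intervals are exact at 95% (Poisson, Clopper-Pearson, or conditional for ratios) and cover counting error only. Nothing says that hashtags came from separate animals. Members and features were called at 1.5-fold between hashtags, 25% between experiments and 2-fold between clusters of at least 100 cells, each with a mean of at least 50 CPM. Clusters came from scanpy 1.11.5 (2000 variable genes, 30 components, 15 neighbours, Leiden resolution 0.5). A cluster took a cell type's name with at least 3 of its markers among the 50 leading genes and 1 among the first 10, and stayed unnamed with at least 2 mature T-cell genes among the first 10. The scripts were tested on simulated data. Alternatives used HTODemux of Seurat 5.3.0, TMM of edgeR 4.0.16 and size factors of DESeq2 1.42.0. No per-sample columns were left unused.

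The members, gene lists and markers were chosen with earlier results of these data known. Values in every hashtag were given for the members with the 6 largest ratios in an experiment, by the rule used, or for restricted paralogs; others were named as the 3 most or least abundant of a complex or among the 5 largest differences between experiments in each direction. Further members, and the 3 with ratios just over that limit between experiments, were chosen after their values were seen.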

Additional observations from a re-analysis of the deposited data

Results flagged for a closer look

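In 160 sets of 8 hashtag values examined, 4 had an end value far from the others, which is no more than the 1 in 20 that chance gives. Hashtags are not replicates of a group, so these are given as values only. Ndufc1 was lowest in hashtag 8 of experiment 1 (220.58 CPM, the next 226.67). Ndufs5 and Ndufs4, both of complex I, were highest in hashtag 4 of experiment 2 (267.28 CPM, the next 252.35, and 173.9 CPM, the next 158.3). Atp5s was highest in hashtag 2 of experiment 2 (8.08 CPM, the next 5.98).

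Barcodes outside the comparisons also held RNA of these genes. Those kept but given no hashtag had 2.62% of UMIs in the members in experiment 1 (535 barcodes) and 2.87% in experiment 2 (1879). Those removed by the cell filter had 1.61% (635 barcodes) and 1.52% (342), with mitochondrially encoded shares of 30.2 and 33.7%.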

How the results depend on the processing

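Between the experiments the joint ratio of the members stayed above 1 under every scaling tried, but single genes and lists near 1 did not keep their side. Members above 1 numbered 63 as reported and 67 by TMM and by DESeq2 size factors. They numbered 66 without ribosomal protein genes and 62 without mitochondrially encoded genes in the total. The median ratio of all features was 0.959, 1.010 (TMM), 1.009 (DESeq2), 0.982 and 0.948 in that order. Atp5b and Atp5a1 turned above 1 by both factors (1.018 and 1.002 by TMM), as did complex II and citric acid cycle genes (1.01 each), and Atp5b (1.01) and complex II (1.004) also did without ribosomal protein genes. No paired analysis was possible because hashtag numbers name no replicate or condition. Medians of the member share and of complexes I, III, IV and V moved with the total used as denominator: without mitochondrially encoded genes they were 2.78, 0.858, 0.298, 0.691 and 0.934% in experiment 1 and 3.10, 0.957, 0.336, 0.791 and 1.01% in experiment 2, and without cytosolic ribosomal protein genes 3.65, 1.12, 0.392, 0.905 and 1.23% and 4.28, 1.33, 0.468, 1.10 and 1.40%. In experiment 2 the mean over cells gave 2.92% for the members, 0.904% for complex I, 0.313% for III and 0.952% for V, thinning gave 2.94 and 0.905% for the members and complex I, and leaving out clusters led by other lineages gave 3.02%. Members differing 1.5-fold between hashtags numbered 1 in each experiment after thinning and 1 in experiment 2 by the mean over cells (Ndufa11 in all of these), 4 in each without a CPM minimum, and 0 without each hashtag in turn. Between experiments the ratio was 1.17 with 18 members higher and 0 lower without ribosomal protein genes, 1.18 with 20 and 0 by TMM and by DESeq2 size factors, and 1.12 to 1.13 with 7 to 9 and 0 to 1 without each hashtag. Without clusters led by other lineages 0 members were lower, and at 2-fold 0 were higher and 0 lower. The highest-to-lowest cluster ratio in experiment 1 was 1.14 at resolution 1.0, 1.12 with 3000 variable genes, 1.13 with members kept for clustering and 1.11 without mitochondrial and ribosomal protein genes. In experiment 2 it was 1.36 at resolution 1.0, 1.28 without those genes, 1.11 without the stromal-like cluster and 1.36 with both that resolution and no stromal-like cluster (the last 2 chosen after seeing the data), and 11, 7, 1 and 3 members differed 2-fold. Thinning to 5000 UMIs raised the variance ratio of experiment 2 to 3.10. Shares of all features called were counted only for the reported settings, TMM, DESeq2 size factors and the clusters without the stromal-like one. The cause of each shift was not tested beyond what its construction shows. Counting error is the only error measured, and genes near 1 to 10 CPM rest on few molecules.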
